A study of Homo sapiens with 8 samples.

Results

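The SOCS and CISH genes were described here on 8 expression arrays of HEL cells. The family has 8 members in the human genome, CISH and SOCS1 to SOCS7, and each was represented by the probe set with the highest mean among those annotated to that gene alone. Each member had exactly 1 such probe set, and no probe set named a member together with another gene. The 8 members were among 17958 genes on the array and all 8 were among the 12570 genes tested, which are those whose mean signal reached 4.37 on the log2 scale.

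HEL is an established human erythroleukaemia line that carries an activated form of the kinase JAK2 and depends on it. Its cells were kept for 48 h with DMSO as the vehicle control, with 0.5 µM LY2784544 (gandotinib, an inhibitor of JAK2), with 20 µM GRN163L (imetelstat, a lipid-linked oligonucleotide that binds the RNA template of telomerase) or with both agents, the combination. The labels do not restate the doses of the combination. Each treatment was made once in experiment 1 and once in experiment 2, so every group held 2 arrays. All 4 groups are of this 1 cell line, the controls received vehicle only, and no group received a control oligonucleotide. The design implies the comparison of each agent and of the combination with control, of the combination with each agent, and of the combined with the separate effects (the interaction).

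Cytokine receptors that lack a kinase of their own signal through JAK kinases, which phosphorylate STAT factors, and these enter the nucleus and induce target genes. CISH, SOCS1, SOCS2 and SOCS3 are among those targets, and their proteins bind the receptor or the JAK through an SH2 domain and dampen the signal, which makes them a negative feedback loop and a common readout of JAK-STAT activity. All family members also carry a SOCS box, a motif that recruits an elongin and cullin ubiquitin ligase. SOCS4 to SOCS7 are better known for acting on growth factor and insulin receptor signalling than as cytokine-induced feedback genes. In red cell and platelet precursors the feedback members limit signalling from the receptors for erythropoietin and thrombopoietin.

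Signals are on the log2 scale of RMA, the standard summary of such arrays, and group levels are the mean ± SD of 2 arrays (n = 2). A gene was called changed at a limma adjusted p below 0.05 over all genes tested. The medians of the tested genes ran from 7.23 to 7.51 across arrays, and a common median for every array would raise all differences by 0.102 for LY2784544 against control and by 0.175 for the combination against control. All 8 erythroid markers and all 7 megakaryocyte markers measured as single genes passed the filter on low signals, among them GATA1 at 10.495 and ITGA2B at 11.21 in control. Of the markers of other cell types, 2 of 5 for T cells, 1 of 3 for B cells, 2 of 3 for monocytes, 1 of 2 for neutrophils, 2 of 4 for epithelium and 2 of 4 for fibroblasts passed it, with control levels from 2.93 (DCN) to 8.93 (CD68) over those lists. The highest of the T cell, B cell and epithelial lists were CD2 at 6.465, CD79A at 7.025 and KRT18 at 8.42, and CD3E, MS4A1 and CD14 were at 3.35, 3.315 and 3.63. The summed log2 signal of the megakaryocyte markers was 62.59 to 62.92 in control, 66.12 to 67.38 with LY2784544, 61.89 to 62.06 with GRN163L and 68.04 to 69.42 with the combination, mostly through PPBP (5.93 in control and 9.065 with the combination) and PF4 (6.19 and 8.105). The summed erythroid markers were 81.6 to 83.78 in control and 77.01 to 80.29 with the combination, mostly through HBZ (8.98 and 5.725). The summed B cell markers were 14.04 to 14.35 in control and 13.12 to 13.13 with the combination, through CD79A alone (7.025 and 5.185), while PAX5 and MS4A1 were higher there. In the same order the sums were 22.06 to 22.86 and 23.27 to 23.83 for T cells, 16.66 to 16.72 and 17.19 to 17.47 for fibroblasts and 17.0 to 17.17 and 16.65 to 16.74 for monocytes, and those of neutrophil and epithelial markers overlapped. The part of these shifts in the results on the SOCS and CISH genes was not tested.

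SOCS3 moved furthest of the 8 members. It encodes an inhibitor that docks on shared cytokine receptor chains and blocks JAK1, JAK2 and TYK2. In experiments 1 and 2 its signal was 8.29 and 8.41 on the control arrays, 7.35 and 7.10 on those of LY2784544, 7.02 and 6.85 on those of GRN163L and 5.23 and 5.58 on those of the combination. The groups were ordered control, LY2784544, GRN163L, combination from high to low, and no array of one group overlapped with the next group. In bulk RNA a signal that is lower because fewer cells express a gene cannot be told apart from one that is lower because each cell holds less of its RNA.

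With LY2784544 SOCS3 fell to 7.225 ± 0.18 from 8.35 ± 0.085 in control (log2 difference -1.125, SE 0.18, limma adjusted p = 0.0251), a signal 2.18-fold lower. With GRN163L it was at 6.935 ± 0.12 (-1.415, SE 0.18, adjusted p = 0.201), which was not called although the difference was the 7th lowest of the 12570 genes in that comparison. With the combination it fell to 5.405 ± 0.25 (-2.945, SE 0.18, adjusted p = 4.77e-04), 7.70-fold below control and the 6th lowest difference of all genes tested. The 3 comparisons share the control arrays. RMA compresses changes of dim probe sets, so the folds are those of the array signal.

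The SOCS3 difference had the same sign in both experiments for each treatment. It was -0.94 and -1.31 for LY2784544, -1.27 and -1.56 for GRN163L and -3.06 and -2.83 for the combination, in experiments 1 and 2. The combination also lay below each agent alone. SOCS3 fell from LY2784544 to the combination (-1.82, SE 0.18, limma adjusted p = 0.00531) and from GRN163L to the combination (-1.53, SE 0.18, adjusted p = 0.0174).

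The SOCS3 call of LY2784544 against control was lost without any 1 of the control, LY2784544 or GRN163L arrays, at a limma adjusted p of 0.0667 to 0.133, and with quantile normalization (0.0504) or a fit on these 2 groups alone (0.0545). The call against GRN163L was lost without either GRN163L array (0.143 and 0.185) or the combination array of experiment 1 (0.0708), and that against LY2784544 in a fit on these 2 groups alone (0.152). In the combination against control SOCS3 stayed called under all 18 alternatives, at an adjusted p of 4.27e-04 to 0.0165. A fit on the control and GRN163L arrays alone called SOCS3 in that comparison too (adjusted p = 0.0494), 1 of 6 genes or 0.0477% of those tested.

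The separate differences of SOCS3 sum to -2.54, against -2.945 in the combination. Their gap, the interaction, was -0.405 (SE 0.26, 95% interval -0.99 to 0.18, limma adjusted p = 0.999), so a departure from additivity on the log2 scale was not called. It was -0.85 in experiment 1 and 0.040 in experiment 2. Between the agents, a contrast added after the values were seen, SOCS3 was 0.29 lower with GRN163L than with LY2784544, with a 95% interval of -0.70 to 0.12 and an adjusted p of 0.500 where 1.05% of all genes were called.

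SOCS1 fell with the combination. Its protein binds JAK2 directly and occupies the substrate site of the kinase, and it is best known for restraining interferon signalling. The signal was 7.80 and 7.23 in control, 7.32 and 6.72 under LY2784544, 7.05 and 6.84 under GRN163L and 6.42 and 6.28 under the combination. Both combination arrays lay below the other 6 arrays, while control, LY2784544 and GRN163L overlapped with their neighbours in that order.

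The SOCS1 mean went from 7.515 ± 0.40 in control to 6.35 ± 0.099 with the combination (-1.165, SE 0.25, limma adjusted p = 0.0449), a signal 2.24-fold lower. The difference was -1.38 in experiment 1 and -0.95 in experiment 2. With LY2784544 it was -0.495 (SE 0.25, adjusted p = 0.450) and with GRN163L -0.57 (SE 0.25, adjusted p = 0.995), neither called, and the interaction was -0.10 (95% interval -0.91 to 0.71).

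The SOCS1 call was narrow. It was lost without either control, GRN163L or combination array (limma adjusted p = 0.0825 to 0.178), without the filter (0.0557), in a fit on these 2 groups alone (0.0752), and with one median (-0.99, 0.0776) or quantile normalization (0.0792). It was kept with the experiment as a replicate block (0.00819).

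CISH, the first member of the family to be described, encodes a feedback inhibitor that binds receptors used by STAT5. Its signal was 8.46 and 8.14 in control, 7.98 and 7.44 under LY2784544, 8.17 and 7.83 under GRN163L and 7.62 and 7.32 under the combination. The order from high to low was control, GRN163L, LY2784544, combination. Neighbouring groups overlapped, while the control arrays lay above all LY2784544 and combination arrays and the GRN163L arrays above those of the combination.

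Against control CISH differed by -0.59 with LY2784544 (SE 0.23, limma adjusted p = 0.321), by -0.30 with GRN163L (SE 0.23, adjusted p = 0.995) and by -0.83 with the combination (SE 0.23, adjusted p = 0.0850), none of them called. In the combination the difference was -0.84 in experiment 1 and -0.82 in experiment 2. All 4 treatments had a CISH signal 0.30 to 0.54 lower in experiment 2 than in experiment 1. With the experiment as a replicate block, which takes the mean difference between the experiments out of the spread, CISH fell in the combination (SE 0.14, adjusted p = 0.0134). That fit called 3 of the 8 members lower, CISH, SOCS1 and SOCS3, where 8.15% of all genes were called lower.

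The RefSeq promoter windows of the members are shown for the 3 that were called in either fit of the combination against control, because JAK-STAT target genes are bound by STAT factors at short palindromic sites. A window holds 250 bases before and 50 after an annotated transcript start (GRCh38.p14), and the part before the start is printed, 5′ to 3′ on the strand of the gene. Capitals mark matches to the STAT motif TTCNNNGAA, whose reverse complement is the same motif, in CISH and to GAAANNGAAA, a core of interferon response elements searched on both strands, in SOCS1. No matches overlap. The CISH stretch is chr3:50611775-50612024, that of SOCS1 is chr16:11256205-11256454 and that of SOCS3 is chr17:78360926-78361175, all on the minus strand.
CISH: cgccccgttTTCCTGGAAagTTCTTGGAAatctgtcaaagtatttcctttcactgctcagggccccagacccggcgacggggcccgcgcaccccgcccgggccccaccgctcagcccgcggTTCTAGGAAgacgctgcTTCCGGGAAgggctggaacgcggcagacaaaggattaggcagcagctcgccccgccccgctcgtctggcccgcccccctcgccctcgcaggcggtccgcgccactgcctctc
SOCS1: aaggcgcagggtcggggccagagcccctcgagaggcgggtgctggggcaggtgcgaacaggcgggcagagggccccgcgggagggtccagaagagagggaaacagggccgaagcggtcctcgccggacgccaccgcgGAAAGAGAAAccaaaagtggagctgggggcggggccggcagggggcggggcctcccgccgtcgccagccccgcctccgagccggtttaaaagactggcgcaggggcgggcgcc
SOCS3: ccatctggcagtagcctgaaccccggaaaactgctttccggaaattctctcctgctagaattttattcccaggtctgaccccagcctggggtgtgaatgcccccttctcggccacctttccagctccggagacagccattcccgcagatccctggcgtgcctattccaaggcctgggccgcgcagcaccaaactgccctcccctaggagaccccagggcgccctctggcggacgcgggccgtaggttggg

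The CISH window held 4 matches to the STAT motif, TTCCTGGAA, TTCTTGGAA, TTCTAGGAA and TTCCGGGAA, which begin at -241, -230, -129 and -112 bases from the start. Of 35114 promoter windows of the same length, 7.66% held at least 1 match and 7 windows, or 0.0199%, held 4 or more. The SOCS1 window held no match to it and 1 to the interferon type motif, GAAAGAGAAA at -113, which 3.57% of all windows held. Neither motif was in the windows of SOCS3, for which 2 starts are listed, nor in those of SOCS4 and SOCS6. SOCS2, SOCS5 and SOCS7 were not matched to a window. A match is a run of letters and not a measured binding site, and the SOCS3 letters say nothing about STAT binding at the gene. Neither SOCS3 window may be at the start that the gene mainly uses, and which start HEL cells use was not measured.

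**Figure D1:**
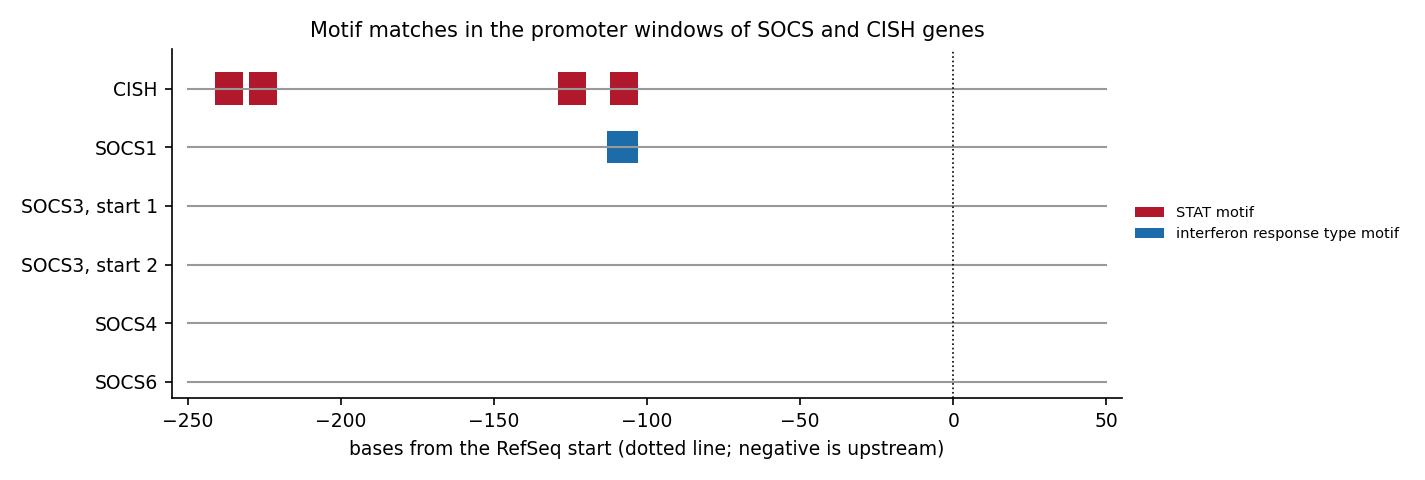
Positions of motif matches in the 6 promoter windows of 5 SOCS and CISH genes. The horizontal axis is the distance in bases from the RefSeq start, each grey line is 1 window, red blocks are STAT motif matches and the blue block is the interferon response type match. The 4 red blocks all lie in CISH, starting at -241, -230, -129 and -112, and the blue block lies in SOCS1.

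SOCS2, which limits growth hormone signalling and is also a STAT5 target, was not called in any comparison. Its signal was 7.01 and 7.27 in control, 6.96 and 7.15 under LY2784544, 7.10 and 7.27 under GRN163L and 6.86 and 7.06 under the combination. In the order GRN163L, control, LY2784544, combination each group overlapped with the next. Against control it differed by -0.085 with LY2784544 (95% interval -0.48 to 0.31), by 0.045 with GRN163L (-0.35 to 0.44) and by -0.18 with the combination (-0.57 to 0.21). These intervals leave out a difference as low as that of SOCS3 in the same comparison. The sign of the LY2784544 and combination values turned under other scalings (0.031 and 0.011 with quantile normalization).

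SOCS4 and SOCS5, which share a long region before the SH2 domain and are linked to EGF receptor turnover, did not pass the test in any comparison. SOCS4 was at 7.52 and 7.93 in control, 7.59 and 7.88 under LY2784544, 7.36 and 7.83 under GRN163L and 7.89 and 8.11 under the combination. The combination arrays lay just above both LY2784544 arrays and overlapped with control, with the highest mean (8.0 ± 0.16 against 7.725 ± 0.29 in control, difference 0.275, SE 0.22, limma adjusted p = 0.491). In each group the array of experiment 2 was the higher one.

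SOCS5 was at 8.34 and 8.06 in control, 8.06 and 7.87 under LY2784544, 8.53 and 8.57 under GRN163L and 8.25 and 8.17 under the combination. Both GRN163L arrays lay above the other 6. The difference from control was 0.35 with GRN163L (SE 0.16, limma adjusted p = 0.995) and -0.235 with LY2784544 (SE 0.16, adjusted p = 0.607). Between the agents SOCS5 was 0.585 higher with GRN163L (SE 0.16, adjusted p = 0.141), the largest such gap among the members and not called.

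SOCS6 and SOCS7, which bind insulin receptor substrates and related growth factor signalling proteins, gave no call either. SOCS6 was at 7.51 and 7.27 in control, 7.53 and 7.87 under LY2784544, 7.33 and 7.34 under GRN163L and 7.08 and 7.77 under the combination. Both LY2784544 arrays of SOCS6 lay above both control arrays (difference 0.31, SE 0.24, limma adjusted p = 0.648). That difference was 0.02 in experiment 1 and 0.60 in experiment 2. The SOCS6 combination arrays lay on either side of control, with a difference of -0.43 in experiment 1 and 0.50 in experiment 2. SOCS7 was at 6.35 and 6.27 in control, 6.77 and 6.10 under LY2784544, 6.38 and 6.30 under GRN163L and 6.51 and 6.08 under the combination. Its 4 group means spanned 0.14, and all groups overlapped. The 95% interval of the combination against control was -0.51 to 0.58 for SOCS6 and -0.56 to 0.53 for SOCS7, and the SOCS7 value turned to 0.16 with one median.

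**Figure D2:**
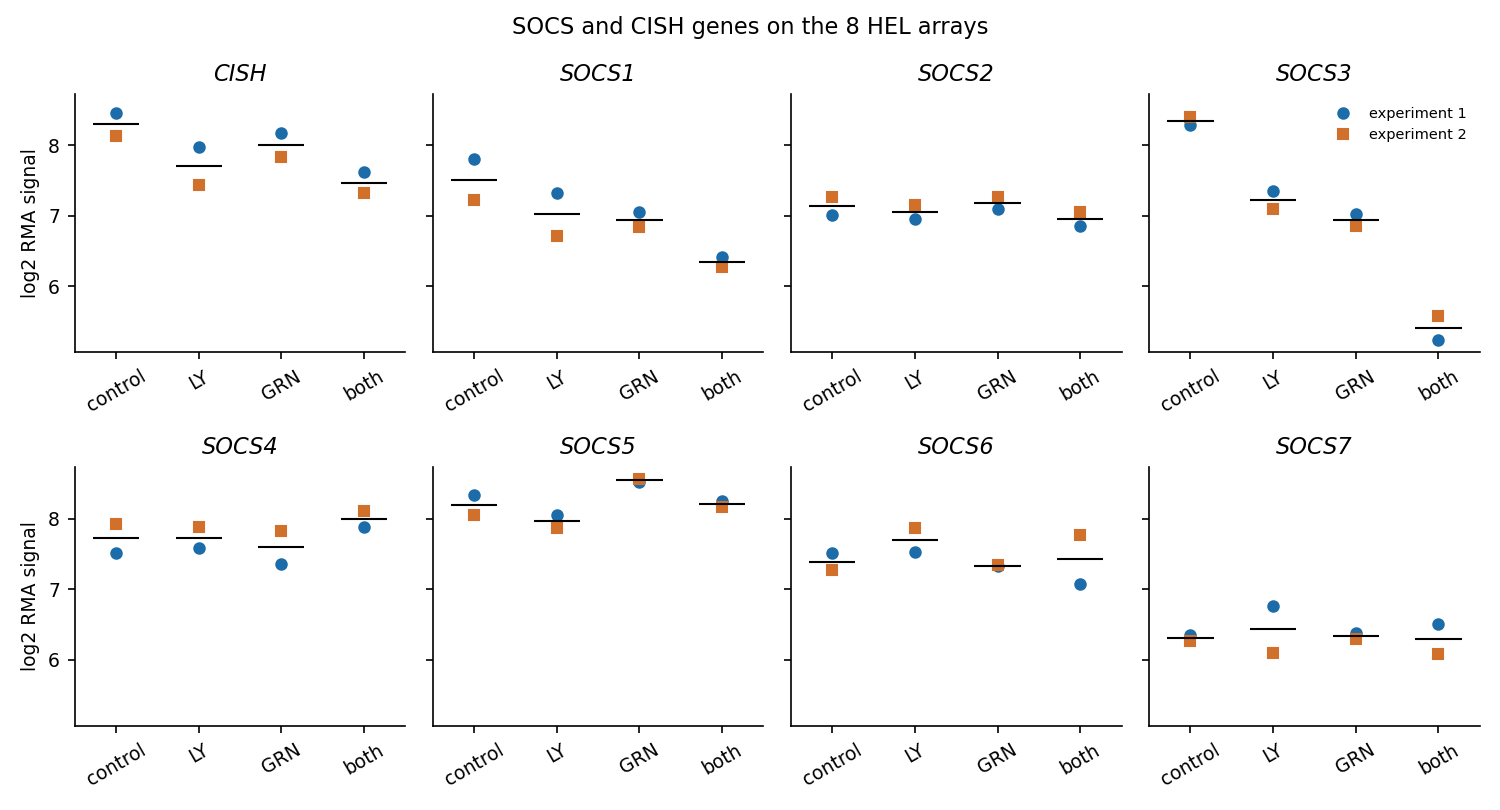
Log2 RMA signal of each SOCS and CISH gene on the 8 arrays. The horizontal axis gives the treatment (LY, LY2784544; GRN, GRN163L; both, the combination), circles are experiment 1, squares experiment 2 and bars the mean of the 2 arrays. SOCS3 steps from 8.35 in control to 5.405 with both agents, SOCS1 from 7.515 to 6.35 and CISH from 8.3 to 7.47, while the other members stay within 0.79 over all arrays. Levels of different genes come from different probe sets and are not comparable.

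The members were chosen with earlier results of these data known, so counts over the family are a description. Counted in this way, LY2784544 against control called 1 of 8 members, SOCS3, lower, where 0.883% of all genes were called lower. GRN163L against control called 0 of 8 members and 0 genes (0%) by limma. At an unadjusted p below 0.05 were 1 of 8 members, SOCS3, and 595 of the 12570 genes tested. The combination against control called 2 of 8 lower, SOCS3 and SOCS1, where 2.71% of all genes were called lower. The combination called 1 of 8, SOCS3, lower both against LY2784544 (0.231% of all genes) and against GRN163L (0.469%). The interaction called 0 of 8 members and 0 genes (0%) by limma, with 0 of 8 members and 464 of 12570 genes at an unadjusted p below 0.05.

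No member was called higher in any of these comparisons, and few of the 12570 genes tested were. Against control 49 genes were called higher with LY2784544, 0 with GRN163L and 95 with the combination. In the combination 10 were called higher against LY2784544 and 9 against GRN163L, and 0 were in the interaction. The median difference over the 8 members was -0.16 with LY2784544, -0.092 with GRN163L and -0.097 with the combination, beside -0.040, 0.0050 and -0.065 over all genes tested. The share of tested genes whose 4 group means spanned less was 99.9% for SOCS3, 95.9% for SOCS1, 89.3% for CISH, 74.9% for SOCS5, 52.7% for SOCS4, 46.0% for SOCS6, 19.5% for SOCS2 and 6.42% for SOCS7.

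**Figure D3:**
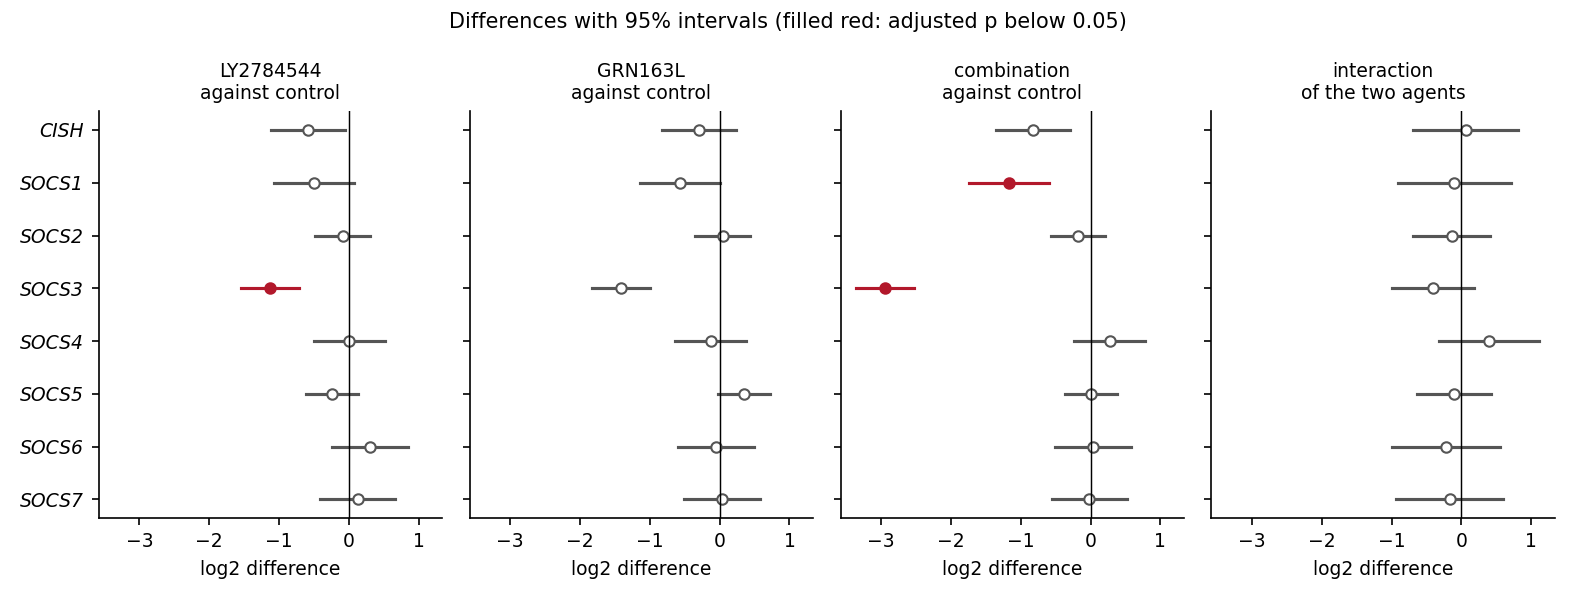
Log2 differences of the 8 SOCS and CISH genes with 95% intervals from the fit over all genes, not adjusted for the number of genes. The panels give each treatment against control, which share the control arrays, and the interaction; filled red points have an adjusted p below 0.05. SOCS3 is at -1.125 with LY2784544 and -2.945 with the combination, SOCS1 at -1.165 with the combination, and all interaction intervals include 0.

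The difference between the experiments had 1 sign in all treatments for 5 members. The share of all genes with 1 sign was not counted. Arrays of 1 experiment deviated together across all genes tested (r = 0.10 to 0.67), so this count is no trait of the family. CISH, SOCS1 and SOCS7 were lower in experiment 2 in all 4 treatments, with mean differences of -0.375 (SE 0.099), -0.38 (SE 0.12) and -0.315 (SE 0.13), and SOCS2 and SOCS4 were higher in all 4, by 0.205 (SE 0.094) and 0.3475 (SE 0.099). That of SOCS3 was 0.0125 (SE 0.12). The SOCS7 difference ran from -0.67 to -0.08 over the treatments and that of SOCS1 from -0.60 to -0.14. No mean difference was called for any of the 8 members (smallest limma adjusted p = 0.107, CISH), where 0.247% of all genes were called. At the looser threshold of an unadjusted p below 0.05 there were 4 members. The share of all genes at that threshold was not counted, so the 0.247% does not compare with it.

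The genes whose profile lay nearest to a member were taken for SOCS3 and SOCS1, whose group means spanned at least 1 log2 unit, by the root mean square difference of the centred log2 signals over the 8 arrays. Nearest to SOCS3 were MOB3B (0.35), from a family of kinase activators, MRC2 (0.37), a collagen-binding receptor, and ETV5 (0.41), an ETS transcription factor. Being chosen on these arrays for their likeness to SOCS3, they had to be low with the combination, and their values are a description. In the combination against control they were at -2.275, -2.24 and -2.065, and with LY2784544 alone at -0.76, -0.275 and -0.235, against -1.125 for SOCS3.

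Nearest to SOCS1 were PROCR (0.14), the protein C receptor, NHSL3 (0.16) and RCOR2 (0.17), a subunit of a histone-modifying corepressor. Chosen in the same way, they were at -1.28, -1.15 and -1.01 in the combination against control, beside -1.165 for SOCS1. PROCR was called there (limma adjusted p = 0.0147), while NHSL3 (0.0721) and RCOR2 (0.0600) were not. RCOR2 was at 4.73 ± 0.34 with the combination, near the filter level of 4.37. The likeness of these 3 includes the lower signals of experiment 2 in control and LY2784544 that SOCS1 also showed.

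**Figure D4:**
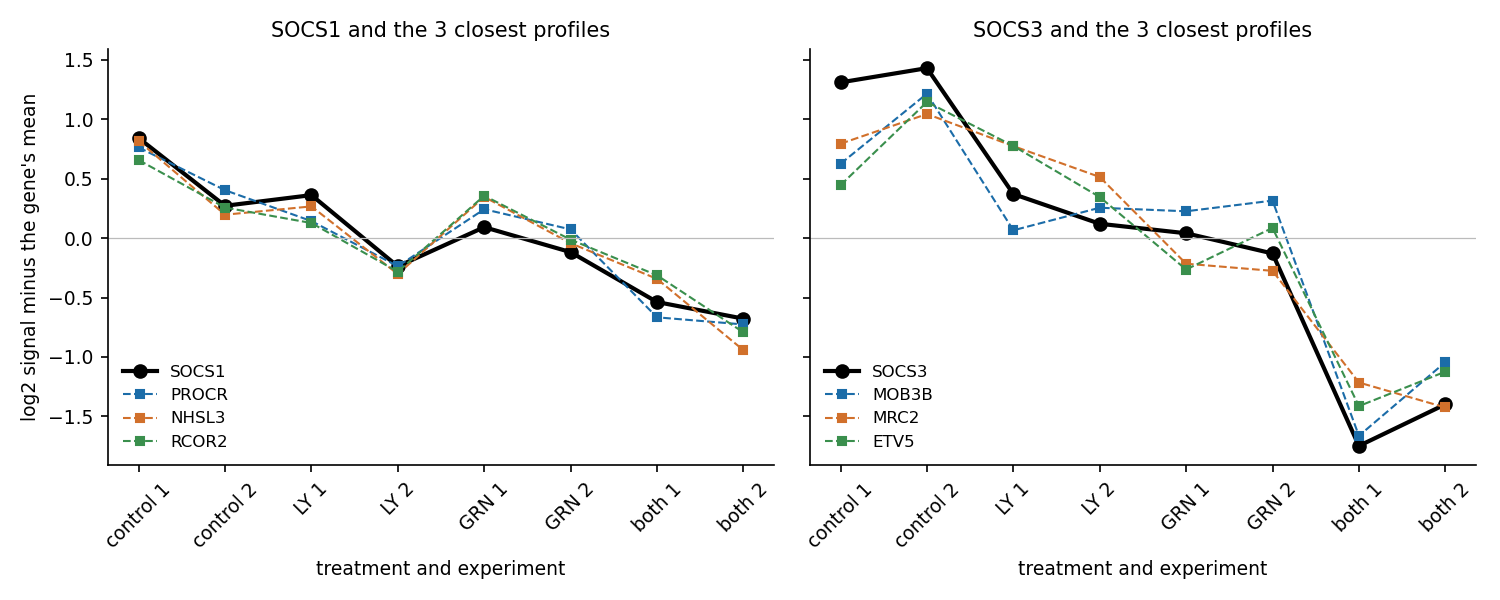
Centred log2 signals of SOCS1 and SOCS3 (black) and of the 3 genes with the nearest profile to each, on the 8 arrays. The horizontal axis gives treatment and experiment, and lines only join the points of a gene. In both panels the combination arrays are lowest for every gene shown, and the SOCS3 neighbours start lower in control than SOCS3 does.

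Among the kinases and factors upstream of the family, 9 of 11 JAK and STAT genes were tested and none was called in any comparison. Over all genes 0% to 2.71% were called lower, depending on the comparison, so no call among 9 genes is near that share. With the replicate block 2 of the 9 were called lower in the combination against control (8.15% of all genes). JAK2, the target of LY2784544, had a mean of 10.44 ± 0.55 on the control arrays and a level of 10.89 on both combination arrays (difference 0.45, SE 0.23, limma adjusted p = 0.286). The median of the 9 was -0.23 in the combination against control, beside -0.065 for all genes.

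Of 24 cytokine and growth factor receptors that SOCS or CISH proteins limit, 14 were tested. This list was chosen with earlier results of these data known, so its counts are a description and no test. With the combination none of the 14 rose, where 95 of the 12570 genes tested were called higher. In the same comparison 3 of the 14 fell, where 2.71% of all genes were called lower. These were IL2RB, a chain of the interleukin-2 and interleukin-15 receptors (-2.86, limma adjusted p = 0.00465), KIT, the stem cell factor receptor (-2.23, 0.0241), and IFNGR2, a chain of the interferon gamma receptor (-1.515, 0.00642). The KIT difference was -2.87 in experiment 1 and -1.59 in experiment 2, with the combination arrays at 8.055 ± 0.90. IL2RB was also lower with LY2784544 alone (-1.75, 0.0306), the 1 call of that list there (0.883% of all genes). KIT differed by 0.565 in that comparison (limma adjusted p = 0.601). No gene of the list was called with GRN163L (0% of all genes). With the replicate block 1 receptor gene was higher and 1 lower with LY2784544, where these shares over all genes were 0.788% and 1.96%. With the combination 2 were higher and 3 lower in that fit, beside 2.84% and 8.15% over all genes.

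STAT target genes outside the family gave 19 tested of 21. The list was chosen with earlier results of these data known, so its counts are a description and do not test the list. In the combination against control none of the 19 rose, where 95 of the 12570 genes tested were called higher. In the same comparison 4 of the 19 fell, where 2.71% of all genes were called lower. These were BCL3, a nuclear cofactor of NF-kB (-2.56, limma adjusted p = 4.77e-04), and ID1, an inhibitor of differentiation factors (-1.645, 0.0123). The others were the kinase genes PIM1 (-1.32, 0.00696) and PIM2 (-0.68, 0.0423). With LY2784544 BCL3 alone fell (-2.335, 0.00234), where 0.883% of all genes were called lower. With GRN163L none was called (0% of all genes), BCL3 being at -1.13. The list medians were -0.44, -0.24 and -0.64 for LY2784544, GRN163L and the combination, beside -0.04, 0.005 and -0.065 over all genes. From LY2784544 to the combination BCL3 differed by -0.225 (adjusted p = 0.588), where SOCS3 fell (-1.82). With the replicate block 3 of the 19 were lower with LY2784544 (1.96% of all genes) and 9 with the combination (8.15%). The interaction was 0.905 for BCL3 (adjusted p = 0.733) and -0.405 for SOCS3, neither called.

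Of the other negative regulators of cytokine signalling, which include phosphatases, PIAS proteins and CBL ligases, 19 of 21 were tested and none was called in any comparison. That is near the 0% to 2.71% of all genes called lower, depending on the comparison. The median of these 19 in the combination against control was -0.14, beside -0.065 for all genes. The replicate block called 2 of the 19 lower there (8.15% of all genes). The 9 tested partners of the SOCS box had 1 call, RNF7, the RING subunit that works with CUL5, which fell with the combination (-0.74, limma adjusted p = 0.0429), where 2.71% of all genes were called lower. Among other genes with a SOCS box 14 of 28 were tested and none was called, where 0% to 2.71% of all genes were called lower. The median of the 14 in the combination against control was -0.14, beside -0.065 for all genes.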

How the data were processed

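The authors deposited log2 signals of 33297 probe sets, made with RMA (background subtraction, quantile normalization and probe summary) in Affymetrix Expression Console, per the submitters' processing notes. The sources used here do not give the version, the build or whether the arrays were normalized together, and the log base was taken from the range of the values. Probe sets naming 1 gene in the platform annotation (19181) gave 17958 genes, each by its highest-mean probe set, and genes under the 30th percentile of the means were left out.

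A model with 4 group means was fitted to the 8 arrays with limma 3.58.1 (R 4.3.3), with empirical Bayes moderation (residual degrees of freedom 4, prior 4.65) and Benjamini-Hochberg adjustment over the 12570 genes; the code was tested on simulated data. The labels pair arrays by experiment, and the main fit did not use this pairing. Across genes, arrays of 1 experiment deviated together from their group means (r = 0.10 to 0.67 over the 6 pairs of groups), and the experiment as a replicate block was an alternative. Only 2 arrays a group limit the precision, and p-values measure the spread between the cultures of 2 experiments. No 2 arrays shared over 1.90% of rounded values.

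The members and gene lists were chosen with earlier results of these data known. Beside the members, the text names the 3 nearest profiles of members spanning 1 log2 unit, JAK2, and up to 4 called genes per list by smallest p in the combination against control. The interferon motif and the contrast between the agents were added after the data were seen. Alternatives were the block, 2 other filters, fits on the compared groups, trend, robust moderation, one median, quantile normalization, the mean of probe sets, array weights and leaving out each array.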

Additional observations from a re-analysis of the deposited data

How the results depend on the processing

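SOCS3 in the combination against control kept its direction and its call under all 18 alternatives, from -3.12 to -2.77. The number of the 8 members called there fell from 2 to 1 without the filter, in the fit on the compared groups, with one median and with quantile normalization, and was 1 to 2 with an array left out. For LY2784544 against control it fell from 1 to 0 in the fit on the compared groups and with quantile normalization and was 0 to 1 with an array left out. The fit on the compared groups, which uses 4 arrays in place of 8, gave 0 for the combination against LY2784544 and 1 for GRN163L against control. For the combination against GRN163L the number was 0 to 1 with an array left out. The replicate block called CISH at -0.83 and changed no other call of a member.

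Of 856 alternative values of the members, 789 kept direction and side of the threshold, 22 lost and 2 gained a call, and 43 changed sign, none of them a called difference. With one median SOCS2 turned to 0.018 in LY2784544 against control, and SOCS7 to 0.16 in the combination against control and 0.145 against GRN163L. With quantile normalization SOCS2 turned to 0.0306 and 0.0106 in LY2784544 and in the combination against control, and SOCS7 to 0.156 against control and 0.14 against GRN163L in the combination. Leaving out an array turned the sign of further uncalled differences, with these ranges. In combination against LY2784544 these were -0.51 to 0.03 for CISH, -0.195 to 0.005 for SOCS2, -0.62 to 0.07 for SOCS6 and -0.475 to 0.195 for SOCS7. In the interaction these were -0.21 to 0.33 for CISH, -0.40 to 0.20 for SOCS1, -0.245 to 0.035 for SOCS5, -0.565 to 0.125 for SOCS6 and -0.505 to 0.165 for SOCS7. In GRN163L against control these were -0.085 to 0.175 for SOCS2, -0.365 to 0.105 for SOCS4, -0.175 to 0.065 for SOCS6 and -0.01 to 0.07 for SOCS7. In LY2784544 against control these were -0.215 to 0.045 for SOCS2, -0.195 to 0.215 for SOCS4 and -0.21 to 0.46 for SOCS7. In combination against control these were -0.13 to 0.15 for SOCS5, -0.31 to 0.38 for SOCS6 and -0.23 to 0.20 for SOCS7. In combination against GRN163L these were -0.255 to 0.435 for SOCS6 and -0.26 to 0.17 for SOCS7. The number of arrays limits what can be called: the 95% interval of a member's difference between 2 groups ran 0.37 to 0.57 to either side, and intervals of the interaction were wider.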
